A study of Caenorhabditis elegans with 6 samples.

Results

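P granules are condensates of RNA and protein that mark the germ lineage of Caenorhabditis elegans. The 8 genes described here encode P granule components, and they were taken by name as pgl-1, pgl-2, pgl-3, glh-1, glh-2, glh-3, glh-4 and deps-1. Every probe set whose gene symbol names one of them was included, without a filter on dim signal, which gave 9 of the 22548 probe sets that are not controls and 8 of 17363 genes. The gene glh-1 has a pair of probe sets, and each of the other 7 genes has 1. By the gene table of assembly WBcel235, 5 of the 8 genes lie on chromosome I (the glh genes and deps-1), and pgl-1, pgl-2 and pgl-3 lie on chromosomes IV, III and V. The probe sets of pgl-1, glh-3 and glh-4 and the brighter one of glh-1 carry the suffix that Affymetrix gives to probes common to more than one transcript, so related transcripts may add to their signal.

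RNA of whole mixed-stage embryos was measured on 6 Affymetrix arrays. Of these, 3 carried RNA of mir-35-41(nDf50), a deletion of the mir-35 to mir-41 microRNA cluster in strain VT2935 without nEx1187, and 3 carried RNA of wild type (N2). Both groups grew on egg yolk plates and were moved from 20 to 25 °C for the last 24 hours before hypochlorite treatment freed the embryos. Of the probe sets, 0 carry a symbol of the deleted microRNAs, so the deletion could not be checked here. Values are the authors' normalized intensities, and differences are log2 values of the mutant minus those of wild type. No label says that replicates were separate cultures, so the p-values cover no more than the variation among these 6 samples, part or all of which could be technical.

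In embryos, P granules are inherited from the oocyte and pass with each early division into the germline daughter cell, until they sit in the primordial germ cells. PGL proteins are the scaffold that condenses with RNA, GLH proteins are Vasa-like DEAD-box RNA helicases that help to hold granules at the nuclear envelope, and DEPS-1 is needed for normal PGL assembly. The granules hold small RNA factors and maternal messenger RNAs, and animals that lack pgl-1, glh-1 or deps-1 become sterile more often at raised temperature. The microRNAs of the mir-35 family are abundant in early embryos and repress messenger RNAs. In RNA of whole embryos, fewer germ cells or a smaller maternal share cannot be told apart from less messenger RNA per cell.

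The arrays were not equally alike. Mutant replicate 1 stood apart from the other mutant arrays, with a root mean square difference over all probe sets of 0.35 and 0.33 log2 units from mutant replicates 2 and 3, which differed from each other by 0.16. Its distance from the wild type arrays was 0.37 to 0.40, whereas mutant replicates 2 and 3 lay 0.44 to 0.50 from wild type, and the wild type arrays lay 0.26 to 0.36 from each other. Each member is therefore also given without mutant replicate 1. The threshold was a Benjamini-Hochberg adjusted p under 0.05 in limma. It was passed by 3.48% of all probe sets, with 2.83% higher and 0.648% lower in mutant embryos, and the median difference was -0.05.

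Among the 8 P granule genes pgl-3 fell and no other gene passed the threshold. Its log2 difference was -0.70, or 1.62-fold lower in the mutant. For its paralog pgl-1 the log2 difference was 0.70, or 1.63-fold between the means of log2 values, with every mutant array above every wild type array, and it did not pass. The other 6 genes had differences between -0.37 and -0.11, and none passed. Thus 1 of 9 probe sets was lower past the threshold, where the share over all probe sets was 0.648%, and 0 of 9 were higher by limma, where it was 2.83%. An unadjusted p under 0.05 was reached by 4 of 9 (pgl-1, pgl-2, pgl-3 and glh-2), against 19.4% of all probe sets.

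**Figure D1:**
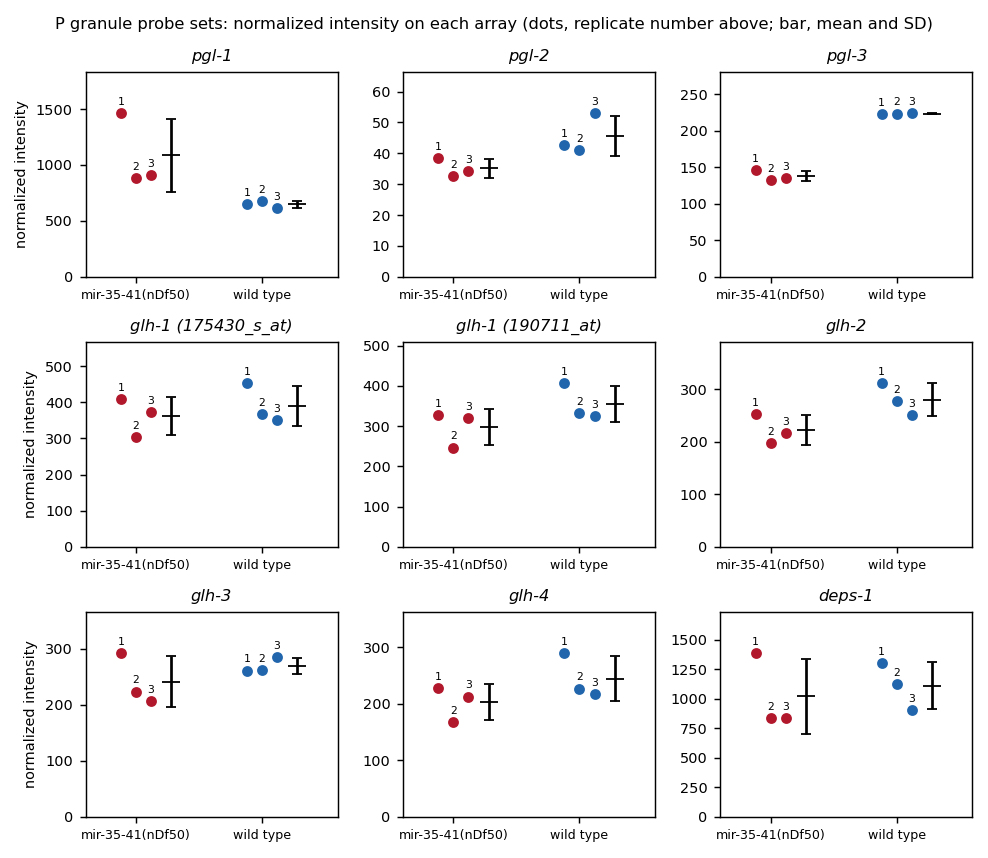
Normalized intensity (linear scale, axes from 0) of the 9 P granule probe sets, with mir-35-41(nDf50) on the left and wild type on the right of each panel. Dots are arrays with their replicate number, and bars give the mean and SD of 3 arrays. The groups do not overlap for pgl-1, pgl-2 and pgl-3, and they overlap for the other 6 probe sets.

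The PGL family was examined first. PGL-3 is a self-associating scaffold protein with RGG repeats that bind RNA. The intensity of pgl-3 was 146, 132 and 135 on mutant replicates 1, 2 and 3, against 222, 223 and 224 on wild type replicates 1, 2 and 3. The groups were wide apart, and the wild type arrays lay almost on top of each other, with a mean of 138 ± 6.97 in the mutant and 223 ± 1.01 in wild type (SD, n = 3 each). The difference was -0.70 on the log2 scale (SE 0.08, 95% interval -0.89 to -0.51, limma adjusted p = 0.00933, lower on 3 of 3 mutant arrays). Among the 146 probe sets that fell past the threshold, 61 fell further than pgl-3 and 6 had a smaller p. The median of those falls was -0.64.

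The size of the pgl-3 fall barely moved when arrays were left out. It was -0.74 without mutant replicate 1 (limma adjusted p = 0.00487) and between -0.74 and -0.67 over the 6 fits that left out 1 array. The call itself was lost in 3 of those fits, at an adjusted p of 0.061 when mutant replicate 2 was left out, 0.0663 when mutant replicate 3 was, and 0.0545 when wild type replicate 2 was (limma). The count over all probe sets also shrank in these fits, to 7, 7 and 18 lower.

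PGL-1, another scaffold protein of the family, has RGG repeats like PGL-3 and can associate with it. The intensity of pgl-1 was 1466, 881 and 909 on mutant replicates 1, 2 and 3, against 650.4, 678 and 617 on wild type replicates 1, 2 and 3. All mutant arrays were above all wild type arrays, and mutant replicate 1 was far above the other mutant arrays, which gave an SD of 330 in the mutant against 30.6 in wild type. The difference was 0.70 (SE 0.20, 95% interval 0.23 to 1.17, limma adjusted p = 0.114). Without mutant replicate 1 the difference was smaller, at 0.47, and passed the threshold (limma adjusted p = 0.0288). It also passed without both arrays numbered 1, at 0.47, and with array weights, at 0.49. Over the fits that left out 1 array the difference lay between 0.47 and 0.83.

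PGL-2 lacks the RGG repeats and is known mainly from the germline after hatching. The intensity of pgl-2 was 38.4, 32.7 and 34.2 on mutant replicates 1, 2 and 3, against 42.7, 41.1 and 53.1 on wild type replicates 1, 2 and 3. These levels lay close to the brightest of the 5 control probe sets for yeast genes, for which worm RNA holds no target. The brightest of the 5, taken on each array separately, read 36.3, 45.7 and 40.5 on mutant replicates 1, 2 and 3. On wild type replicates 1, 2 and 3 it read 43.9, 39.5 and 46.7. So pgl-2 was above the brightest control on mutant replicate 1 and on wild type replicates 2 and 3, and below it on the other arrays. The difference was -0.37 (SE 0.13, interval -0.67 to -0.07, limma adjusted p = 0.174), and -0.44 without mutant replicate 1.

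Groups that did not overlap are common in these data. The groups were separate for 24.3% of all probe sets, in either direction, and for 3 of the 9 P granule probe sets. Of these, pgl-2 and pgl-3 were lower and pgl-1 was higher in the mutant.

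**Figure D2:**
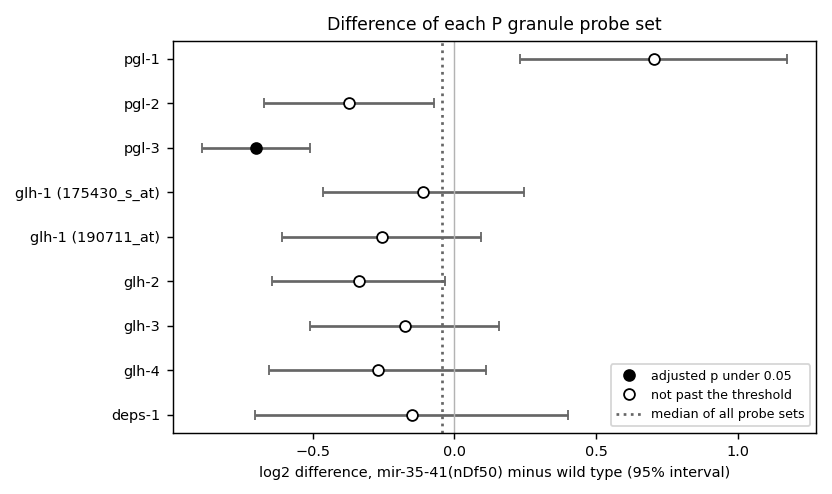
Log2 difference of each P granule probe set, mir-35-41(nDf50) minus wild type, with the 95% interval of the limma fit (3 arrays per group). The filled point, pgl-3 at -0.70, is past the threshold, pgl-1 is at 0.70, and the dotted line is the median of all probe sets at -0.05.

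Because pgl-3 and pgl-1 were read on the same arrays, their ratio could be followed within each array. The log2 ratio of pgl-3 to pgl-1 intensity was -3.33, -2.73 and -2.75 on mutant replicates 1, 2 and 3, against -1.55, -1.60 and -1.46 on wild type replicates 1, 2 and 3. The groups were far apart, with the ratio 2.64-fold lower in the mutant (change of -1.40). This change is the pgl-3 difference minus the pgl-1 difference, which were the lowest and the highest of the 9 probe sets. Since the groups of both genes were separate, in opposite directions, the separation of the ratio follows and is no further result. An exact permutation test over the arrays gave p = 0.1, 2-sided, which is the smallest p that 3 against 3 arrays allow, so the test could not pass. Without mutant replicate 1 the change was -1.21.

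The same ratio was formed for pgl-3 against each of the other 8 probe sets. Their changes lay between -1.40 and -0.33. Since pgl-3 had the lowest difference of the 9 probe sets, the direction of all 8 follows from it and is no separate result. The mutant and wild type arrays overlapped for the ratio to glh-4 and were separate for the other 7. All 8 ratios share pgl-3, whose own groups were separate, so these separations are no independent results. The share of separate groups among such ratios over all probe sets was not computed. Adjusted over the 8 ratios, the exact permutation p of the ratio to pgl-1 was 0.114.

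The helicase genes came next. GLH-1 is the main germline Vasa relative of the worm, and GLH-1, GLH-2 and GLH-4 carry glycine-rich FGG repeats, which GLH-3 lacks. None of the 5 probe sets of the 4 genes passed, and all 5 differences were below 0, with a median of -0.26. Over all probe sets, 60.7% of differences were below 0, and the median was -0.05. How often 5 probe sets would share this sign was not tested.

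The brighter probe set of glh-1 (175430_s_at) had intensities of 409, 305 and 373 on mutant replicates 1, 2 and 3, against 454, 367 and 351 on wild type replicates 1, 2 and 3. The groups were interleaved, with mutant replicates 1 and 3 above wild type replicates 2 and 3. The difference was -0.11 (SE 0.15, interval -0.46 to 0.24, limma adjusted p = 0.745), and its sign turned without mutant replicate 2 (0.01) and without wild type replicate 1 (0.00). The other probe set of glh-1 (190711_at) read 328, 246 and 319 on mutant replicates 1, 2 and 3, against 407, 332 and 325 on wild type replicates 1, 2 and 3. Its difference was -0.26 (SE 0.15, interval -0.61 to 0.09, limma adjusted p = 0.404). Both probe sets ranked mutant replicate 2 lowest and wild type replicate 1 highest. Without mutant replicate 1 they gave -0.20 and -0.33. For 190711_at the difference shrank to -0.13 without mutant replicate 2 and to -0.15 without wild type replicate 1, and for 175430_s_at it was -0.18 without wild type replicate 3.

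The gene glh-2, the closest relative of glh-1, came nearest to separating the groups among the helicases. Its intensity was 253, 197 and 216 on mutant replicates 1, 2 and 3, against 312, 278 and 251 on wild type replicates 1, 2 and 3. Only mutant replicate 1 reached into the wild type range. The difference was -0.34 (SE 0.13, interval -0.64 to -0.03, limma adjusted p = 0.219), and -0.44 without mutant replicate 1 (adjusted p = 0.0766).

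For glh-3 the mutant arrays read 293, 223 and 207 on replicates 1, 2 and 3, against 261, 262 and 285 on wild type replicates 1, 2 and 3. Mutant replicate 1 was the highest of all 6 arrays and the other mutant arrays were the lowest. The difference was -0.18 (SE 0.14, interval -0.51 to 0.16, limma adjusted p = 0.553), -0.32 without mutant replicate 1 (adjusted p = 0.0873) and -0.07 without mutant replicate 3. For glh-4 the mutant arrays read 228, 168 and 213 on replicates 1, 2 and 3, against 290.2, 227 and 217 on wild type replicates 1, 2 and 3. Here too the groups overlapped, through mutant replicate 1, and the difference was -0.27 (SE 0.16, interval -0.65 to 0.11, limma adjusted p = 0.422). It was -0.36 without mutant replicate 1, and -0.14 both without mutant replicate 2 and without wild type replicate 1.

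DEPS-1 is a P granule protein that acts upstream of PGL assembly and in RNA interference. The intensity of deps-1 was 1391, 836 and 837 on mutant replicates 1, 2 and 3, against 1305, 1126 and 905 on wild type replicates 1, 2 and 3. Mutant replicate 1 was the highest array and mutant replicates 2 and 3 were the lowest ones. The difference was -0.15 (SE 0.23, interval -0.70 to 0.40, limma adjusted p = 0.78). Its interval was the widest of the members, and the difference was -0.39 without mutant replicate 1, and leaving out wild type replicate 3 gave -0.29. It was -0.03 without mutant replicate 2, mutant replicate 3 or wild type replicate 1.

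For these 6 probe sets that overlapped, the intervals bound what the arrays allow. The lower ends leave room for levels in the mutant between 1.38-fold lower (glh-1, 175430_s_at) and 1.63-fold lower (deps-1). The upper ends lie between 0.98 times the wild type level for glh-2 and 1.32 times for deps-1.

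**Figure D3:**
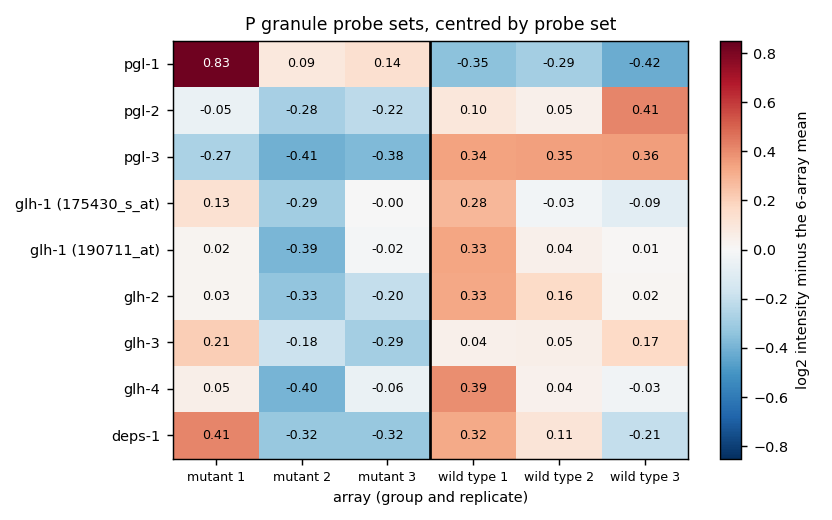
Log2 intensity of each P granule probe set minus its mean over the 6 arrays, for mutant replicates 1 to 3 (left of the line) and wild type replicates 1 to 3 (right). Red is above and blue below the mean of that probe set. The values of pgl-3 split by group, those of pgl-1 split the opposite way, and each helicase probe set and deps-1 has its lowest value on mutant replicate 2 or 3.

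Within the mutant group the arrays were ordered alike for most members. Mutant replicate 1 was the highest mutant array for 9 of 9 probe sets, and for 40.5% of all probe sets. Mutant replicate 2 was the lowest of all 6 arrays for 7 of 9, and for 18.6% of all probe sets. The median of the 9 centred log2 values was 0.05, -0.32 and -0.20 on mutant replicates 1, 2 and 3, against 0.32, 0.05 and 0.01 on wild type replicates 1, 2 and 3. On this measure mutant replicate 1 lay among the wild type arrays. The median difference of the 9 probe sets was -0.26, beside -0.05 for all probe sets, and was -0.36 without mutant replicate 1. Leaving out mutant replicate 2 gave -0.13, leaving out wild type replicate 1 gave -0.15, and the fits that left out 1 array spanned -0.36 to -0.13.

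Likeness of profiles was measured as the root mean square difference of centred log2 values over the 6 arrays. Of the 36 pairs of members, glh-1 (190711_at) and glh-4 were the most alike, at 0.03, and the glh-1 probe sets differed from each other by 0.08. The pair pgl-1 and pgl-3 was the least alike, at 0.73. The profile of pgl-3 was at 0.20 from that of pgl-2, whose signal was near the yeast controls, and at 0.21 from that of glh-2. These distances share the same 6 arrays and are descriptions.

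Outside the members, 11202 genes brighter than the yeast controls were ranked by the same distance from pgl-3. The 5 nearest were C35D10.5 at 0.07, C14B9.2, which the deposited table calls erp72, at 0.08, the carnitine palmitoyl transferase gene cpt-4 at 0.08, T20F5.7 at 0.09 and W02C12.2 at 0.09. A profile like that of pgl-3 has separated groups by construction, and these genes had differences of -0.76 to -0.58 with limma adjusted p-values of 0.00976 to 0.0353. None of the 5 passed without mutant replicate 2 (adjusted p of 0.0626 to 0.129) or without mutant replicate 3 (0.0615 to 0.151). Of the 5, W02C12.2 alone passed in each fit without 1 wild type array, and with the replicate block C35D10.5 and T20F5.7 did not pass (limma adjusted p = 0.0569 and 0.0501). For cpt-4, as an example, the arrays read 973, 935 and 1020.4 on mutant replicates 1, 2 and 3, against 1393, 1516 and 1475 on wild type replicates 1, 2 and 3.

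**Figure D4:**
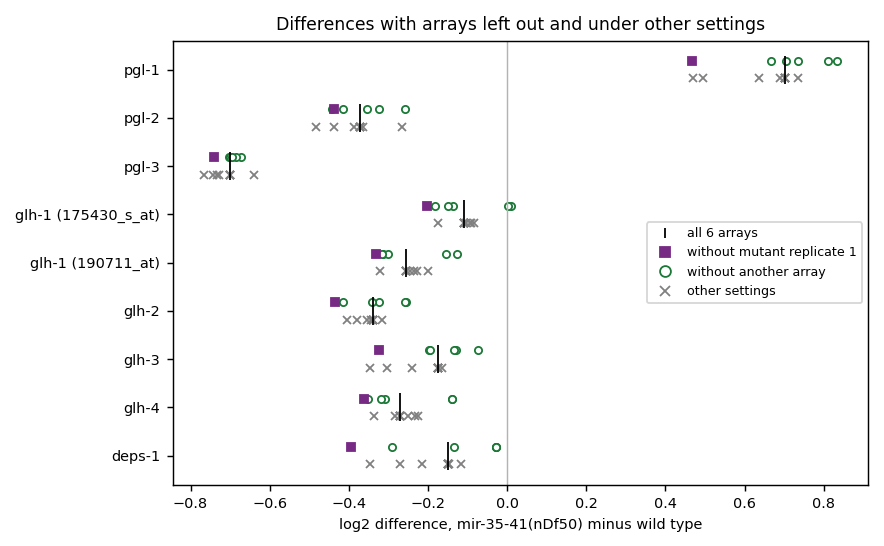
Log2 difference of each P granule probe set, mir-35-41(nDf50) minus wild type, with all 6 arrays (bar), without mutant replicate 1 (square), without another single array (circle) and under the other settings (cross). The pgl-3 values stay between -0.77 and -0.64 and the pgl-1 values between 0.47 and 0.83, whereas glh-1 (175430_s_at) reaches 0.

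Related genes were described through lists of other genes of germ granules, of germ lineage fate and chromatin, and of polarity. They were counted by the brightest probe set of each gene. Over all genes, 3.67% passed the threshold, 3.04% higher and 0.628% lower. An unadjusted limma p under 0.05 was reached by 19.8%, and the median difference was -0.05. The first list held factors that assemble P granules or reside in them, such as the MEG proteins. Of its 20 measured genes 1 fell and 0 rose by limma, with a median of -0.13, and 4 of the 20 had an unadjusted p under 0.05 (cey-2, cey-3, laf-1 and pptr-1). The gene that fell, cey-2, encodes a Y-box RNA-binding protein of the germline. It read 1792, 1636 and 1642 on mutant replicates 1, 2 and 3, against 2878, 2768 and 2285 on wild type replicates 1, 2 and 3, with all mutant arrays below. The difference was -0.64 (SE 0.11, limma adjusted p = 0.0345). The call was lost without mutant replicate 2, mutant replicate 3, wild type replicate 1 or wild type replicate 2. The limma adjusted p-values were then 0.149, 0.158, 0.0729 and 0.126, with differences of -0.62, -0.62, -0.57 and -0.60. Of the list, 3 genes were lower in the fit without mutant replicate 1. Over all probe sets 870 were lower in that fit, against 146 with all arrays, so the share of 0.628% does not apply to it.

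Small RNA pathway proteins of germ granules formed the second list. Of 20 measured genes 0 passed in either direction by limma, the median was -0.22, and 3 had an unadjusted p under 0.05 (prg-1, mut-14 and simr-1). Its largest differences were 0.63 for prg-1 and -0.61 for simr-1. The PIWI Argonaute gene prg-1, whose probe set has the same suffix for shared probes, read 2216, 1548 and 1604 on mutant replicates 1, 2 and 3, against 1071, 1277 and 1093 on wild type replicates 1, 2 and 3. Like pgl-1, it had every mutant array above every wild type array and its highest value on mutant replicate 1 (limma adjusted p = 0.0882, and 0.0511 without that array, with a difference of 0.46). The Tudor domain gene simr-1 read 140, 109 and 118.9 on mutant replicates 1, 2 and 3, against 253, 183 and 139 on wild type replicates 1, 2 and 3, so the groups met at mutant replicate 1 and wild type replicate 3. Its adjusted p was 0.199, and without wild type replicate 1 its difference was -0.39.

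Genes of germ lineage fate and chromatin, 19 measured, had a median of -0.19, with 0 past the threshold by limma and 3 at an unadjusted p under 0.05 (spr-5, fbf-1 and nos-1). The largest differences were -0.42 for spr-5, a histone demethylase gene, and -0.32 for fbf-1, which encodes a PUF translational repressor and was at -0.20 without mutant replicate 3. The signal of fbf-1 was dim. On mutant replicates 2 and 3 it read 47.6 and 41.1, where the brightest yeast control read 45.7 and 40.5. The 12 polarity genes, which set the posterior placement of P granules in the zygote, had a median of -0.12, with 0 past the threshold and 0 at an unadjusted p under 0.05 by limma. Here the largest differences were -0.34 for mex-6, a zinc finger gene, and -0.30 for par-2, a RING finger gene. Single arrays moved both. Leaving out mutant replicate 1 gave -0.55 for mex-6 and -0.52 for par-2. Leaving out wild type replicate 1 gave -0.20 for mex-6 and -0.08 for par-2.

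The deposited table itself assigns genes to the P granule in its cellular component column. Besides the members this gave 29 genes, a list taken after the data were seen. The members and the other lists were also chosen with earlier results of these data known. By limma 0 passed, 3 had an unadjusted p under 0.05 (laf-1, oma-2 and prg-1), and the median was -0.05, the same as that of all genes. Without mutant replicate 1 the median was -0.17 and 1 gene was lower. Over all probe sets 870 were lower in that fit, against 146 with all arrays.

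The medians of these lists moved with single arrays too. Over the fits that left out 1 array they lay between -0.24 and -0.09 for assembly, -0.30 and -0.14 for small RNA pathway proteins, -0.26 and -0.11 for germ lineage fate, -0.20 and -0.06 for polarity, and -0.18 and -0.03 for the annotated genes. In each of the 5 lists the median of centred log2 values was higher on mutant replicate 1, between 0.14 and 0.19, than on mutant replicates 2 and 3, between -0.26 and -0.12. Mutant replicate 1 was thus the highest mutant array for these medians, as it was for the members. The annotated list shares many genes with the other lists, such as cgh-1, mex-6 and prg-1, so the 5 lists are not separate repeats.

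**Figure D5:**
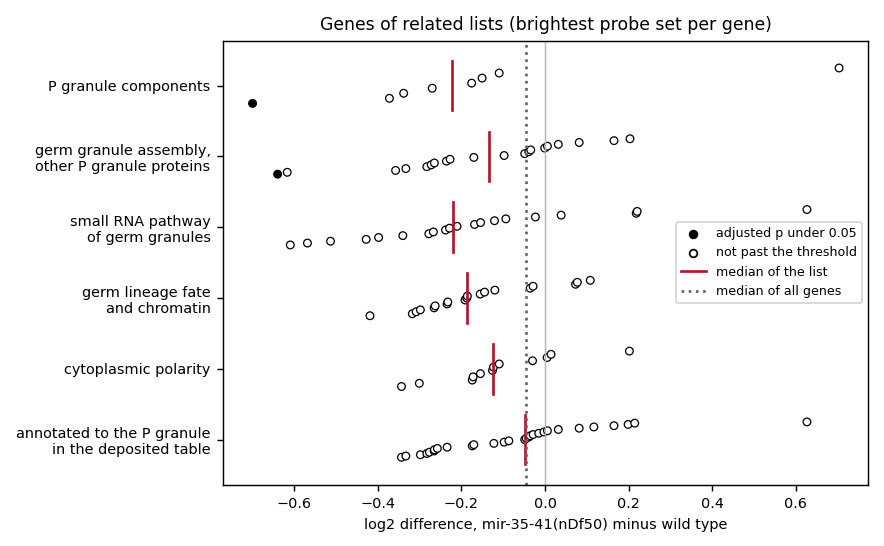
Log2 differences, mir-35-41(nDf50) minus wild type, of the P granule components (top row, 8 genes) and of the genes of 5 related lists, each point a gene by its brightest probe set. Red bars are list medians, between -0.22 and -0.05, and the dotted line is the median of all genes. The points past the threshold are pgl-3 and cey-2.

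Markers of embryonic stages and tissues differed between the same arrays. The summed intensity of 10 early zygotic genes was 5932, 3767 and 4105 on mutant replicates 1, 2 and 3, against 5702, 5865 and 6050 on wild type replicates 1, 2 and 3. The sum of 8 pharynx genes was 5349, 8557 and 8379 on mutant replicates 1, 2 and 3, against 5081, 5206 and 5237 on wild type replicates 1, 2 and 3. In both lists mutant replicates 2 and 3 stood apart from wild type and mutant replicate 1 lay nearer to it. The 12 oocyte and maternal genes summed to between 5999 and 6358 in the mutant and between 7239 and 9698 in wild type, and 12 of 12 had differences below 0, with a median of -0.21. The 7 markers of primordial germ cells outside the members summed to between 5752 and 7399 in the mutant and between 5408 and 6414 in wild type, with a median of -0.26. Of the 7, 5 had differences below 0. The brightest were cgh-1, with means of 2776 in the mutant and 2784 in wild type, and prg-1, with 1789 and 1147. All but gla-3 also belong to the lists above.

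For muscle, intestine and neuron genes, the sums on mutant replicates 2 and 3 were above those of every wild type array. Over 10 muscle genes they were 19598, 28311 and 27186 on mutant replicates 1, 2 and 3, against 20562 to 22950 in wild type. Over 10 intestine genes they were 13304, 18822 and 17874, against 11969 to 15311. Over 11 neuron genes they were 9231, 12196 and 11796, against 8061 to 8869. Mutant replicate 1 was the lowest mutant array in each, below wild type for muscle, within it for intestine and above it for neurons. Bright genes weigh most in such sums, and single genes of these lists went both ways. Differences were below 0 for 2 of 10 muscle, 4 of 10 intestine and 4 of 11 neuron genes. The medians were 0.25, 0.08 and 0.13. For 10 epidermis genes the sums were 31484 to 33511 in the mutant and 32112 to 33647 in wild type. Most of these sums came from sqt-3, with means of 24445 in the mutant and 23820 in wild type. Sperm genes were dim, with 9 of 11 no brighter on average than the yeast controls and sums of 498 to 507 in the mutant and 497 to 538 in wild type. By limma 2 neuron genes (egl-3 and egl-21), 3 epidermis genes (dpy-5, dpy-9 and rol-6) and 1 pharynx gene (pqn-71) rose, and 2 epidermis genes (elt-3 and che-14) fell, where 3.04% of all genes were higher and 0.628% lower. No marker of these lists was at 0, but this does not show that each was expressed. The yeast controls, without a target, read 12.8 to 45.7 in the mutant and 12.5 to 46.7 in wild type. The part of embryo stage in the differences of the P granule genes was not tested.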

How the data were processed

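Starting values were the intensity columns of the table deposited by the authors, normalized and linear, 1 column per array, made with Affymetrix Expression Console per the submitters' processing notes. How probes were summarized and background corrected is not given in the sources used. Scaling between arrays hides changes in total messenger RNA. The deposited series matrix holds log2 values equal to the log2 of that table within 5.66e-06. Insect stage terms in some description fields were not used.

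Log2 intensities without a pseudocount were fitted with limma 3.58.1 (lmFit, eBayes; R 4.3.3), group being the only term. Tests were 2-sided, and p-values were adjusted by Benjamini-Hochberg over 22548 probe sets after removal of 77 controls, with a threshold of 0.05. Steps were tested on simulated data. Genes were counted by their brightest probe set among those with 1 gene, and names were updated through the WBcel235 gene table, which matched 16872 of 17363 genes. Ratios between members were tested with exact permutation over arrays. No sequences were used here. The number of arrays limits the precision.

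Members and lists were chosen with earlier results of these data known. Named were all probe sets of the members, from each list up to 4 genes past the threshold or else the 2 largest differences, and the 5 profiles nearest to pgl-3. Alternatives were the replicate block, each array left out, both arrays numbered 1 left out, the series matrix, other scalings (median centring, quantile normalization), removal of the dimmest 25% or 50% of probe sets, log2 of the value plus 16, a robust fit with a trend on intensity, array weights and averaging a gene's probe sets.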

Additional observations from a re-analysis of the deposited data

How the results depend on the processing

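The pgl-3 difference kept its sign under every alternative run, between -0.77 and -0.64. With 1 array left out, the differences ran from -0.74 to -0.67 for pgl-3, from 0.47 to 0.83 for pgl-1 and from -0.20 to 0.01 for glh-1 (175430_s_at), whose sign turned without mutant replicate 2 (0.010) and without wild type replicate 1 (0.0027). The other members kept their sign. Counts with 1 array left out ranged from 102 to 1534 higher and from 7 to 870 lower over all probe sets, from 0 to 1 in either direction over the P granule genes, and, for genes lower, from 0 to 3 for germ granule assembly, from 0 to 1 for small RNA pathway proteins, from 0 to 2 for germ lineage fate and from 0 to 1 for genes annotated to the P granule. Without both arrays numbered 1, 1955 probe sets were higher and 1553 lower, 1 P granule gene was higher (pgl-1 at 0.47), and 3, 1 and 4 genes were lower in the first 3 of these lists. With array weights 2228 were higher and 1967 lower, and 1 P granule gene was higher (pgl-1 at 0.49) and 3 lower (pgl-3, pgl-2 at -0.36 and glh-2 at -0.38). The lists then held 5, 3, 5 and 4 lower genes, and 1 higher among small RNA pathway and among annotated genes (prg-1). Median centring gave 291 lower, and leaving out the dimmest 50% gave 389 higher and 81 lower, without pgl-2, which that filter removes. The cause of these shifts was not tested. Deviations of same-numbered arrays correlated at 0.20, 0.02 and 0.09. Mutant replicates 1 and 2 correlated best with the wild type array of the same number, and mutant replicate 3 with wild type replicate 2. The labels do not say whether replicate numbers pair the arrays, and these correlations do not settle it. With the replicate block 726 probe sets were higher and 156 lower, and pgl-3 passed with limma at adjusted p = 0.0252. Signal near the yeast controls limits pgl-2 and, on mutant replicates 2 and 3, fbf-1.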
